A study of Mus musculus with 6 samples.

Results

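The 9 genes described here are the Hedgehog ligand gene Shh, the receptor gene Ptch1, the signal transducer gene Smo, the transcription factor genes Gli1, Gli2 and Gli3 and the co-receptor genes Gas1, Boc and Cdon. They were taken by gene name from a table of 22667 genes, of which 21553 hold values. All 9 were found once. All 9 also passed the filter on low values (a 6-library mean of 1 cRPKM or more), which left 12315 genes to test. The kidneys came from mouse embryos at E13.5, 3 of them homozygous for a Fat4 mutation (Fat4-/-) and 3 wildtype (Fat4+/+). Each library held total RNA from the 2 kidneys of 1 embryo, trimmed of most of the ureter. The embryos were littermates from 1 dam, on a strain given as C57BL6/6 after 6 backcrosses, and no allele other than Fat4 and no treatment is named for either genotype. Differences between libraries of 1 genotype are thus differences between littermates.

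Hedgehog ligands bind Ptch1, which then stops holding back the membrane protein Smo. Active Smo turns Gli2 and Gli3 away from their repressor forms, and Gli activators switch on target genes that include Gli1 and Ptch1 themselves. Gas1, Boc and Cdon are cell surface proteins that help the ligand bind. In the developing mouse kidney and ureter Shh is made by the epithelium of the ureter and the medullary collecting ducts, and it signals to the mesenchyme around them. Expression is given as cRPKM, which is RPKM (reads scaled by transcript length and library size) after a correction by the authors. It was taken to be per length, so that levels of different genes could be set side by side, though no source used here describes the correction.

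The 3 Gli factors share 5 zinc fingers that bind DNA. The coding sequences of the last 2 fingers are shown to let the factor whose transcript fell in mutant kidneys (Gli1) be compared with those that did not pass the test (Gli2 and Gli3). They were read from GENCODE M21 transcripts (GRCm38), and capitals mark the codons of the cysteines and histidines that hold the zinc.

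Gli1 (chromosome 10, minus strand): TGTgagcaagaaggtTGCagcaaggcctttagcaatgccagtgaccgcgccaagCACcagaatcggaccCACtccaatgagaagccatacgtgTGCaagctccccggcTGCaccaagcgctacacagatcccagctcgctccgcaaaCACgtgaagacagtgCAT
Gli2 (chromosome 1, minus strand): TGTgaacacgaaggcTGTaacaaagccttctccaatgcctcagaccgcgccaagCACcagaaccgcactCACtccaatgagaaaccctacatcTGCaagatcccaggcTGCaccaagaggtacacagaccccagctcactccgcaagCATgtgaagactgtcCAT
Gli3 (chromosome 13, plus strand): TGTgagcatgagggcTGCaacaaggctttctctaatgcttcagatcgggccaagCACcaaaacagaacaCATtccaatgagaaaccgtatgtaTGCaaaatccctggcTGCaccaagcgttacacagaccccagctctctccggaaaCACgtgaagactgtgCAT

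Over these 165 bases Gli1 matched Gli2 at 82.4% and Gli3 at 80.0% of positions, and Gli2 matched Gli3 at 83.0%. The encoded 55 residues matched at 92.7%, 94.5% and 98.2% in the same order of pairs. The longest run of identical bases between annotated transcripts was 23 for Gli1 and Gli2, 14 for Gli1 and Gli3 and 25 for Gli2 and Gli3. For Boc and Cdon it was 31. No source used here gives the read length.

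The 6 libraries were close in scale. Their cRPKM summed to 477953 to 503223 in mutant libraries and to 473695 to 496707 in wildtype libraries. Read totals are unknown. Ratios of low values gave relative depths from 0.902 to 1.04, with wildtype embryo 1 set to 1, in a search limited to factors near 1 that accounted for 17 to 23 of the 28 to 35 ratios per library. Fat4 fell to 7.503 ± 0.310 cRPKM in mutant kidneys, against 16.4 ± 0.634 cRPKM in wildtype kidneys (SD, n = 3 each; log2 fold change -1.03, adjusted p = 0.000155), which separates the libraries by label. No source used here says which part of Fat4 the mutation removes, so its remaining reads cannot be placed. The 4 Y-linked genes measured summed to 69.6, 0.0800 and 0.150 cRPKM in mutant embryos 1, 2 and 3 and to 72.97, 65.27 and 68.82 cRPKM in the wildtype embryos. Embryos with Y-linked genes near 0 were thus found in the mutant group alone. Wildtype embryo 3 stood apart for neural genes, with Tubb3 at 4.57 cRPKM against 0.880 to 1.25 cRPKM in the other 5 libraries.

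**Figure D1:**
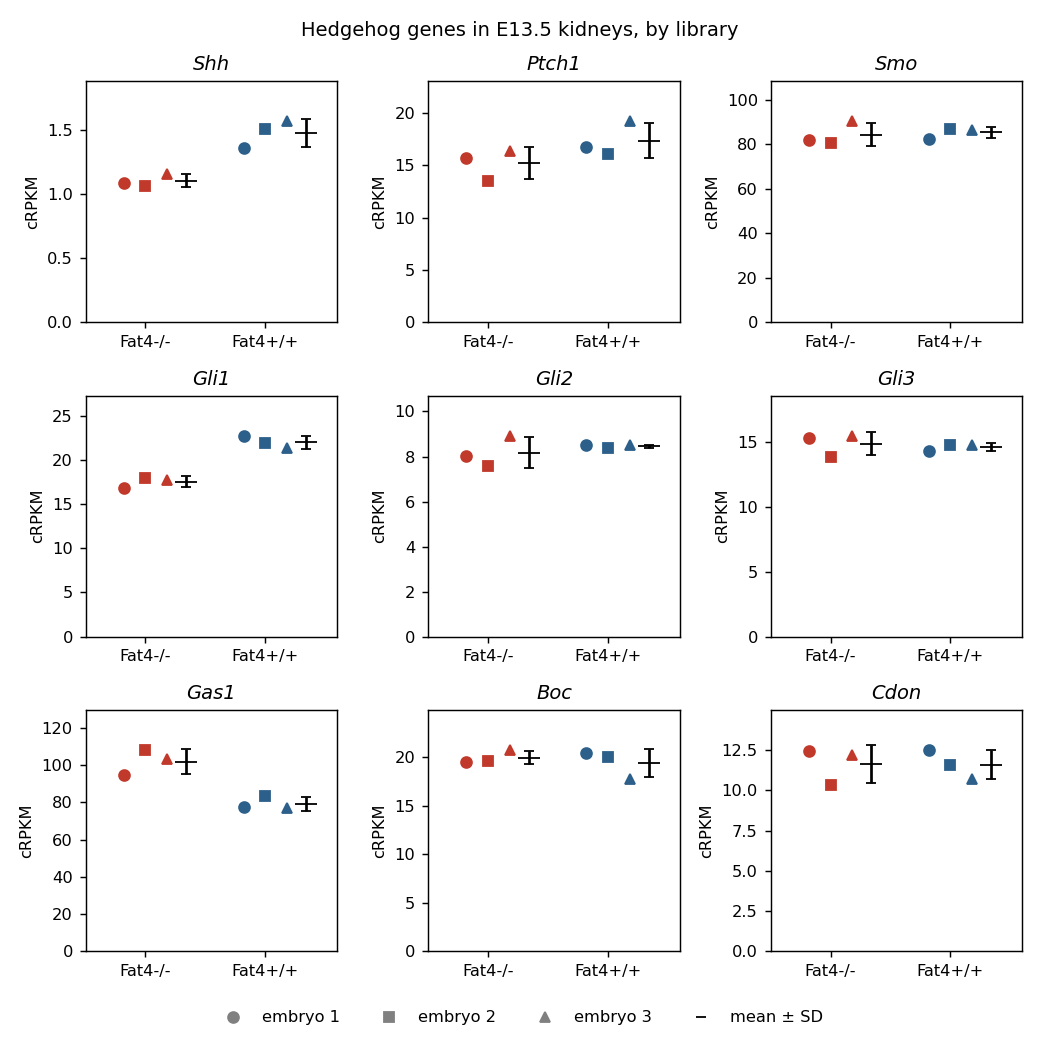
Expression (cRPKM, linear axis from 0) of each of the 9 Hedgehog genes in the 3 Fat4-/- libraries (red, left) and the 3 Fat4+/+ libraries (blue, right); each point is 1 embryo and bars are mean ± SD. Mutant values lay below all wildtype values for Shh and Gli1 and above all of them for Gas1, and the groups overlapped for the other 6 genes.

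Of the 9 genes, Gli1 fell and Gas1 rose in mutant kidneys, and 7 did not pass (limma with Benjamini-Hochberg adjustment over all 12315 tested genes, adjusted p under 0.05). Among all tested genes 0.877% were called lower, 0.552% higher and 1.43% in either direction. Every mutant value lay below every wildtype value for 2 genes (Shh and Gli1), as for 11.0% of all tested genes. For 1 gene (Gas1) every mutant value lay above every wildtype value, as for 7.23% of all tested genes. The median log2 fold change of the 9 was -0.02, and that of all tested genes was -0.01.

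Shh, the ligand, was the lowest of the 9 genes. It was at 1.09, 1.06 and 1.16 cRPKM in mutant embryos 1, 2 and 3 and at 1.36, 1.51 and 1.57 cRPKM in wildtype embryos 1, 2 and 3. All mutant values lay under the wildtype values. The mean was 25.5% lower in mutant kidneys, with a log2 fold change of -0.24 on the log2(cRPKM + 1) scale (95% interval -0.38 to -0.09, unadjusted p = 0.00535), and it did not pass over all genes (adjusted p = 0.134). Only 2.57% of tested genes had a mean at or below that of Shh, and at such a level the pseudocount of 1 shrinks the fold change. How many reads its values rest on is unknown. With a pseudocount of 0.1 the log2 fold change was -0.39 (adjusted p = 0.139). The other ligand genes, Ihh and Dhh, were too low to test. Ihh, a ligand best known from cartilage and gut, was at 0.0700 to 0.0900 cRPKM in mutant and 0.0800 to 0.140 cRPKM in wildtype libraries. Dhh, the ligand of Sertoli and Schwann cells, was at 0.240 to 0.300 cRPKM in mutant and 0.330 to 0.390 cRPKM in wildtype libraries.

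Ptch1, the ligand receptor and itself a Hedgehog target, was at 15.69, 13.52 and 16.43 cRPKM in mutant embryos and at 16.78, 16.12 and 19.24 cRPKM in wildtype embryos. The groups overlapped, since mutant embryo 3 lay above wildtype embryo 2. Its log2 fold change of -0.18 (SE 0.0828, 95% interval -0.37 to 0.01, adjusted p = 0.406) did not pass. Wildtype embryo 3 and mutant embryo 2 held its highest and lowest values, and the log2 fold change was -0.11 without wildtype embryo 3 and -0.10 without mutant embryo 2. Smo, the transducer that Ptch1 inhibits, was at 81.82, 80.59 and 90.25 cRPKM in mutant and 82.48, 86.89 and 86.37 cRPKM in wildtype embryos. The range of the mutant libraries enclosed that of the wildtype libraries, and the 95% interval of the log2 fold change ran from -0.14 to 0.10 (adjusted p = 0.924). Its sign turned positive without mutant embryo 1 or 2 (0.00 and 0.01). The log2 ratio of Ptch1 to Smo within a library was -2.47 ± 0.0972 in mutant and -2.30 ± 0.132 in wildtype kidneys (SD, n = 3 each; exact permutation test, 2-sided, p = 0.2). With 3 embryos against 3 the smallest p that test can give is 0.1.

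Gli1, a transcriptional activator whose own gene is switched on by Hedgehog signalling, was at 16.79, 17.97 and 17.76 cRPKM in mutant embryos and at 22.72, 21.96 and 21.29 cRPKM in wildtype embryos. The groups were apart, with a gap larger than the spread within either. The mean fell by 20.4% to 17.5 ± 0.630 cRPKM in mutant kidneys, against 22.0 ± 0.716 cRPKM in wildtype kidneys (SD, n = 3 each; log2 fold change -0.31, SE 0.0439, 95% interval -0.41 to -0.21, adjusted p = 0.0196). Gli2, the main activator upstream of Gli1, was at 8.04, 7.56 and 8.92 cRPKM in mutant and 8.50, 8.39 and 8.51 cRPKM in wildtype embryos. The 3 wildtype values of Gli2 lay close together, inside the range of the mutant values, and its log2 fold change was -0.05 (95% interval -0.18 to 0.09, adjusted p = 0.795). Gli3, whose processed form is the main repressor of the family, was at 15.27, 13.82 and 15.45 cRPKM in mutant and 14.25, 14.72 and 14.78 cRPKM in wildtype embryos. The mutant range again enclosed the wildtype range, and the log2 fold change was 0.02 (95% interval -0.09 to 0.14, adjusted p = 0.898). Fold changes of Gli2 and Gli3 turned sign without mutant embryo 2 (Gli2, 0.00) and without mutant embryo 3 (Gli3, -0.01). These are levels of transcript, and the proteins' full-length and processed forms were not measured.

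Gli1 made up less of the Gli transcripts in mutant kidneys. Its share of the summed cRPKM of the 3 genes was 41.9%, 45.7% and 42.2% in mutant embryos 1, 2 and 3 and 49.97%, 48.7% and 47.8% in wildtype embryos. The mean share was 43.2 ± 2.11% in mutant and 48.8 ± 1.11% in wildtype kidneys (SD, n = 3 each). No mutant value reached the lowest wildtype value (exact permutation test, 2-sided, p = 0.1, the smallest possible). Gli3 took up 36.6 ± 1.48% in mutant and 32.4 ± 0.938% in wildtype kidneys, and Gli2 20.1 ± 0.984% in mutant and 18.8 ± 0.254% in wildtype kidneys (SD, n = 3 each). Shares of a sum depend on each other, so these are not a result separate from the lower Gli1 level. The log2 ratio of Gli1 to Gli3 was 0.14, 0.38 and 0.20 in mutant embryos and 0.67, 0.58 and 0.53 in wildtype embryos (exact permutation test, 2-sided, p = 0.1). The 3 genes together summed to 40.5 ± 1.44 cRPKM in mutant and 45.0 ± 0.446 cRPKM in wildtype kidneys (SD, n = 3 each).

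**Figure D2:**
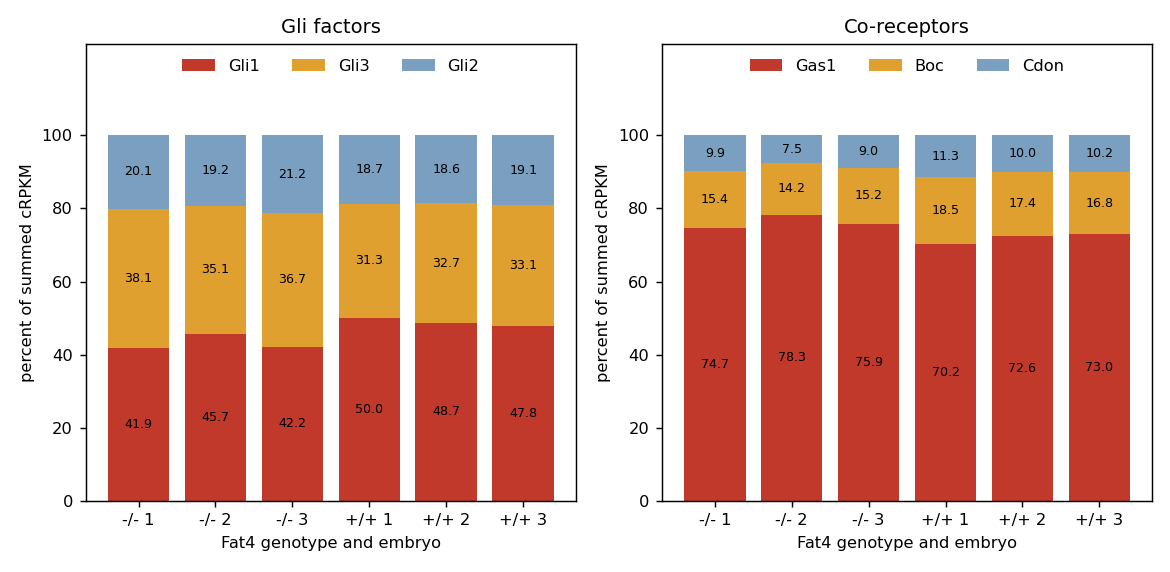
Share of each gene in the summed cRPKM (percent) of the 3 Gli genes (left) and of the 3 co-receptor genes (right), 1 bar per library with the Fat4-/- embryos left of the Fat4+/+ embryos. Gli1 held 41.9% to 45.7% of the Gli sum in mutant and 47.8% to 49.97% in wildtype libraries, and Gas1 held 74.7% to 78.3% of the co-receptor sum in mutant and 70.2% to 73.0% in wildtype libraries.

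Gas1, a membrane-anchored co-receptor whose transcript Hedgehog signalling lowers in other mouse tissues such as the neural tube, was at 94.50, 107.95 and 103.31 cRPKM in mutant embryos and at 77.35, 83.69 and 76.80 cRPKM in wildtype embryos. Every mutant value was above every wildtype value. The mean rose by 28.6% to 101.9 ± 6.83 cRPKM in mutant kidneys, against 79.3 ± 3.83 cRPKM in wildtype kidneys (SD, n = 3 each; log2 fold change 0.36, SE 0.0588, 95% interval 0.22 to 0.49, adjusted p = 0.0298). Gas1 is also known to be needed for the upkeep of nephron progenitors in the mouse. Boc, a co-receptor of the immunoglobulin superfamily, was at 19.45, 19.62 and 20.67 cRPKM in mutant and 20.38, 20.04 and 17.70 cRPKM in wildtype embryos. The groups overlapped, wildtype embryo 3 was lowest, and the log2 fold change of 0.04 (95% interval -0.09 to 0.17, adjusted p = 0.834) turned to -0.02 without that embryo. Cdon, the paralogue of Boc, was at 12.48, 10.32 and 12.20 cRPKM in mutant and 12.49, 11.58 and 10.69 cRPKM in wildtype embryos. Its values varied as much within a genotype as between them, with a log2 fold change of 0.01 (95% interval -0.17 to 0.19, adjusted p = 0.982), which was negative without mutant embryo 1, mutant embryo 3 or wildtype embryo 3 (-0.04, -0.02 and -0.04).

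The co-receptors thus summed to 133.5 ± 6.18 cRPKM in mutant and 110.2 ± 5.06 cRPKM in wildtype kidneys (SD, n = 3 each; exact permutation test, 2-sided, p = 0.1). Gas1 held 76.3 ± 1.81% of that sum in mutant and 71.9 ± 1.53% in wildtype kidneys (SD, n = 3 each), and the groups did not overlap (exact permutation test, 2-sided, p = 0.1). The plot of shares shows the step at Gas1 beside smaller shares of Boc and Cdon, which are not a result separate from the higher Gas1 level.

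Of the 2 called genes, Gas1 is the one with an entry in the table of RefSeq promoters, so the 250 bases before its RefSeq start are shown (GRCm38.p6, minus strand, chr13:60177536-60177785), in lower case. That start lies 170 bases upstream of the GENCODE M21 start of Gas1.

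Gas1 promoter: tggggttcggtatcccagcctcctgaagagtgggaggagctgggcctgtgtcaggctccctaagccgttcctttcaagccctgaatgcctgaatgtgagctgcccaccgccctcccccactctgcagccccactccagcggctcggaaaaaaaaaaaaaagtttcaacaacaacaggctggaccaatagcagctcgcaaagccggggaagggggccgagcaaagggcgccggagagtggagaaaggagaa

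The textbook Gli binding motif GACCACCCA was searched on both strands. It was absent from this window and from those before the RefSeq starts of the other 5 members with an entry (Ptch1, Smo, Gli2, Gli3 and Cdon), and 0.225% of 32851 RefSeq promoter windows of that length held it. The RefSeq starts of Cdon, Ptch1 and Gli3 lie 30948, 7863 and 488 bases inside the gene as GENCODE M21 draws it, so these windows need not cover the promoter in use. A match of these letters in so short a window is rare, and its absence says nothing of Gli binding elsewhere.

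In wildtype kidneys Smo (85.3 cRPKM on average) and Gas1 (79.3 cRPKM) were far above the rest, with ranges that overlapped each other. Gli1 (22.0 cRPKM) came next and lay above Boc (19.4 cRPKM). Boc and Ptch1 (17.4 cRPKM) overlapped, and Gli3 (14.6 cRPKM), Cdon (11.6 cRPKM), Gli2 (8.47 cRPKM) and Shh (1.48 cRPKM) followed without overlap between neighbours. In mutant kidneys the order differed at the places of the 2 called genes. Gas1 (101.9 cRPKM) stood above Smo (84.2 cRPKM) in every mutant library, and Gli1 (17.5 cRPKM) stood below Boc (19.9 cRPKM). Ptch1 (15.2 cRPKM) and Gli3 (14.9 cRPKM) overlapped there.

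The calls of Gli1 and Gas1 were near the threshold. Leaving out any 1 of 5 libraries ended the call of Gli1 (adjusted p = 0.0514 to 0.0735), which passed without wildtype embryo 3 (0.0289), and unadjusted p stayed at most 0.000582 over these fits. Gas1 passed without wildtype embryo 2 (0.0429) and not without mutant embryo 1, 2 or 3 (0.0502, 0.0980 and 0.115) or wildtype embryo 1 or 3 (0.0799 and 0.0620). With the Y-linked score as a covariate the log2 fold change was -0.37 for Gli1 (unadjusted p = 0.000417, adjusted p = 0.216) and 0.25 for Gas1 (unadjusted p = 0.00827, adjusted p = 0.528). Mutant embryo 1, which expressed the Y-linked genes as the wildtype embryos did, had the lowest Gli1 value of the 6 libraries (16.79 cRPKM). Its Gas1 value (94.50 cRPKM) was the lowest of the mutant values and above the highest wildtype value (83.69 cRPKM). This is 1 embryo, and genotype and the Y-linked difference were not told apart.

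Of the 18 listed Hedgehog target genes with values 14 were tested, of which Gli1 fell, Bcl2 rose and 12 did not pass. The fold change was below 0 for 10 of the 14, Gli1 and Ptch1 among them, beside 56.8% of all tested genes. The median was -0.13, against -0.01 for all tested genes. Hhip, a ligand-binding inhibitor induced by the pathway, was too low to test, at 0.430, 0.310 and 0.350 cRPKM in mutant and 0.710, 0.480 and 0.720 cRPKM in wildtype embryos, without overlap. Bcl2, an inhibitor of apoptosis, rose to 19.4 ± 0.416 cRPKM in mutant kidneys, against 16.3 ± 0.497 cRPKM in wildtype kidneys (SD, n = 3 each; log2 fold change 0.24, SE 0.0405, adjusted p = 0.0335). Osr2, a zinc finger gene with the lowest fold change of the list, was at 8.21, 8.76 and 11.31 cRPKM in mutant and 13.10, 14.51 and 19.28 cRPKM in wildtype embryos (log2 fold change -0.67, adjusted p = 0.0733). Foxf1a, Foxf2 and Nkx2-2, targets in lung, gut and neural tube, were too low to test (at most 0.240 cRPKM in any library).

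**Figure D3:**
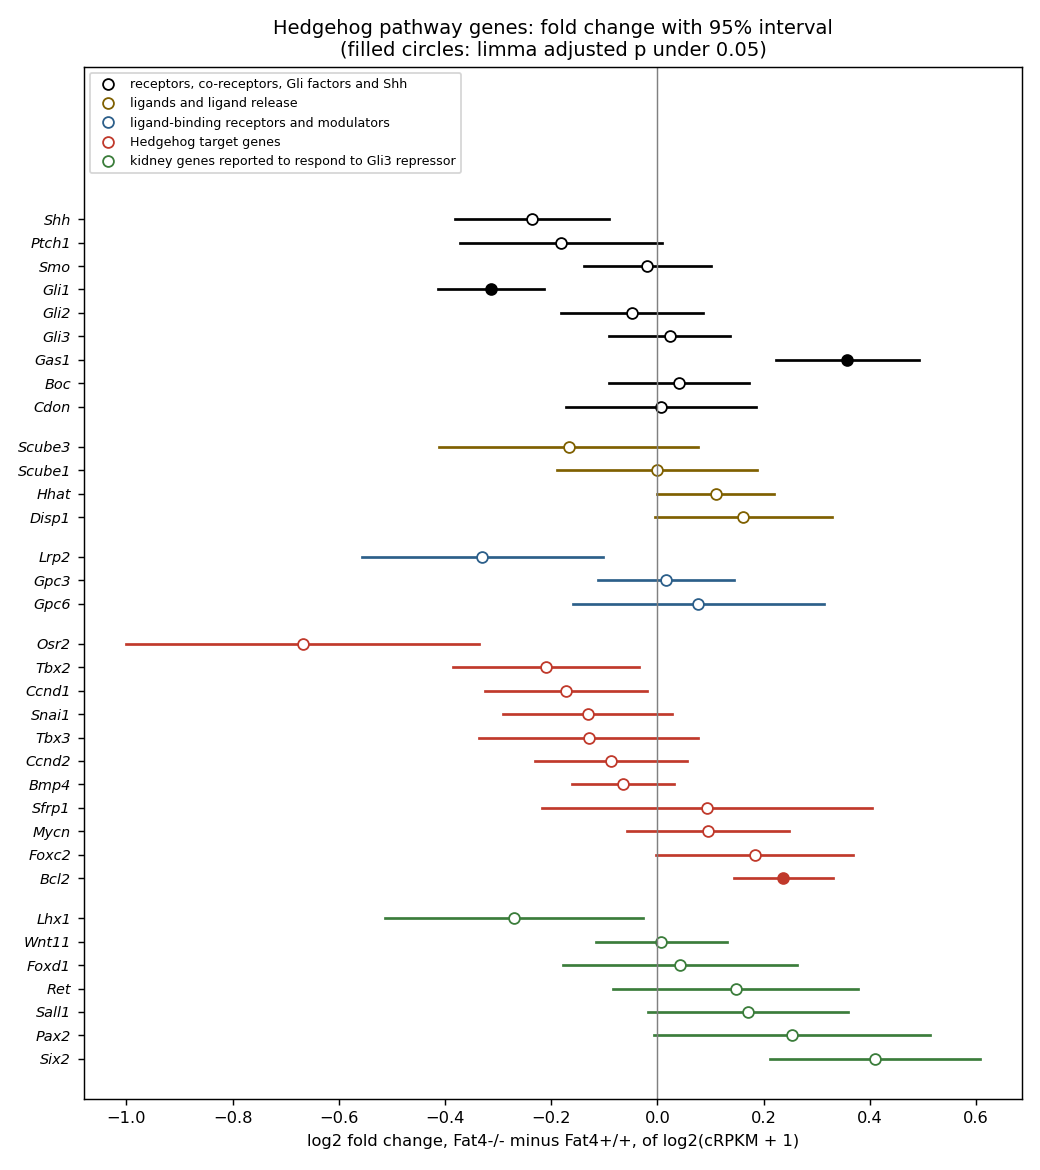
Log2 fold change (Fat4-/- minus Fat4+/+, of log2(cRPKM + 1)) with its 95% interval from limma for the 9 Hedgehog genes and the other tested genes of 4 pathway lists, 1 of which is not drawn; filled circles have an adjusted p under 0.05. Gli1 (-0.31) is filled to the left of 0, Gas1 (0.36) and Bcl2 (0.24) to the right, and the intervals of Ptch1, Smo, Gli2, Gli3, Boc and Cdon include 0.

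No gene passed on the lists of ligands and their release and of further receptors and modulators, neither of which holds Gas1. Of 8 listed for ligands and their release, 4 were tested and none was called; Hhat, which attaches palmitate to the ligand, was at 0.11 (adjusted p = 0.385), Disp1, which releases it, at 0.16 (adjusted p = 0.396), and Scube3, a secreted partner in release, at -0.17 (adjusted p = 0.579). Of 5 receptors and modulators, 4 were tested and none was called. Lrp2, an endocytic receptor, was at 0.780 to 0.950 cRPKM in mutant and 1.09 to 1.67 cRPKM in wildtype libraries (log2 fold change -0.33, adjusted p = 0.186). Gpc6, a glypican, was at 0.08 (adjusted p = 0.821).

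Among 20 genes that control Gli proteins or relay the signal, all were tested and none passed, with a median log2 fold change of 0.00 and a range of -0.26 to 0.11. Evc, a ciliary protein that acts with Smo, was at -0.14 (adjusted p = 0.312), Kif7, a ciliary kinesin that restrains and aids Gli factors, at 0.11 (adjusted p = 0.341), and the kinase gene Stk36 at 0.10 (adjusted p = 0.451). All 12 genes of the primary cilium, the organelle on which mammalian Hedgehog signalling depends, were tested. None passed (median -0.04, range -0.12 to 0.11), with Ift122 at 0.11 (adjusted p = 0.350), Cep290 at -0.12 (adjusted p = 0.539) and Kif3a at -0.06 (adjusted p = 0.577). Of the 7 kidney genes reported in mice to respond to the Gli3 repressor none passed, with a median of 0.15 and 6 above 0. Over all tested genes 56.8% were below 0. All 7 listed genes are also on the marker lists of kidney cell types given below, so the counts are not separate results. Six2, which keeps nephron progenitors undifferentiated, was at 0.41 (adjusted p = 0.0673), the transcription factor gene Lhx1 at -0.27 (adjusted p = 0.322) and Pax2, a regulator of kidney formation, at 0.25 (adjusted p = 0.393).

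Marker lists of kidney cell types are given beside these values. In bulk kidneys fewer cells of a type and less RNA per cell cannot be told apart. Of 18 markers of ureteric and collecting duct epithelium, only part of which makes Shh, 16 were tested. Of these 1 fell (the keratin gene Krt7) and 15 did not pass, with a median log2 fold change of -0.23. Every mutant value lay below every wildtype value for 9 of the 16, against 11.0% of all tested genes. The fold change was above 0 for 3 (Ret 0.15, Calb1 0.12 and Wnt11 0.01), each with overlapping groups. Their summed level was 287.2 to 295.0 cRPKM in mutant and 296.9 to 350.4 cRPKM in wildtype libraries. Krt7 was at 3.36, 3.79 and 3.21 cRPKM in mutant and 4.67, 4.56 and 5.33 cRPKM in wildtype embryos (log2 fold change -0.39, adjusted p = 0.0392), and Elf5, an epithelial transcription factor gene, was at -0.28 (adjusted p = 0.0846). All 11 urothelial markers were under 1 cRPKM in every library, among them the uroplakin gene Upk3a at no more than 0.0200 cRPKM, and they summed to 3.19 to 3.99 cRPKM in mutant and 3.56 to 4.35 cRPKM in wildtype libraries.

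Of 7 markers of medullary stroma, which lies beside Shh-making ducts, 1 fell, none rose and 6 did not pass (median -0.20). They summed to 440.7 to 510.8 cRPKM in mutant and 429.8 to 477.9 cRPKM in wildtype libraries, most of it from Cdkn1c. Alx1, a homeobox gene of this stroma, fell to 4.92 ± 0.373 cRPKM in mutant kidneys, against 7.42 ± 0.391 cRPKM in wildtype kidneys (SD, n = 3 each; adjusted p = 0.0117). Penk, an opioid precursor gene, was at 8.88 ± 1.02 cRPKM in mutant and 16.1 ± 3.73 cRPKM in wildtype kidneys (SD, n = 3 each; adjusted p = 0.0540). The fold change was above 0 for 3 of the 7. Among these Fibin, a secreted protein gene, was at 12.76, 15.10 and 13.17 cRPKM in mutant and 11.95, 11.49 and 10.97 cRPKM in wildtype embryos, without overlap (log2 fold change 0.23, adjusted p = 0.151), while Cdkn1c (0.075) and Wnt4 (0.05) overlapped. Of 13 markers of ureteral mesenchyme and smooth muscle, 9 were tested. Tshz3, a factor for ureteral smooth muscle, fell to 3.29 ± 0.0404 cRPKM in mutant kidneys, against 4.67 ± 0.174 cRPKM in wildtype kidneys (SD, n = 3 each; adjusted p = 0.0117). Des, for desmin, rose to 54.2 ± 3.11 cRPKM in mutant kidneys, against 38.2 ± 2.46 cRPKM in wildtype kidneys (SD, n = 3 each; adjusted p = 0.0119). Of the 9 tested, 7 had a fold change below 0 and 2 above 0, with a median of -0.17. That list summed to 327.2 to 346.0 cRPKM in mutant and 324.3 to 337.7 cRPKM in wildtype libraries. Most of the sum came from Aldh1a2 (log2 fold change -0.01), which is also on the list of cortical stroma.

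Of 12 cortical stroma markers 1 fell (Pdgfra, a growth factor receptor; log2 fold change -0.48, adjusted p = 0.00427) and 11 did not pass, with sums of 732.7 to 749.6 cRPKM in mutant and 756.7 to 814.6 cRPKM in wildtype libraries. Of 12 nephron progenitor markers 3 rose (Eya1, Osr1 and Meox2) and 9 did not pass, with a median of 0.29 and sums of 576.4 to 659.0 cRPKM in mutant and 481.6 to 536.5 cRPKM in wildtype libraries. The 10 markers of renal vesicles and early nephrons summed to 138.3 to 157.1 cRPKM in mutant and 146.0 to 193.9 cRPKM in wildtype libraries, with 1 lower call (Dkk1) and 9 that did not pass. The part of these cell types in the values of Shh, Gli1 and Gas1 was not tested.

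**Figure D4:**
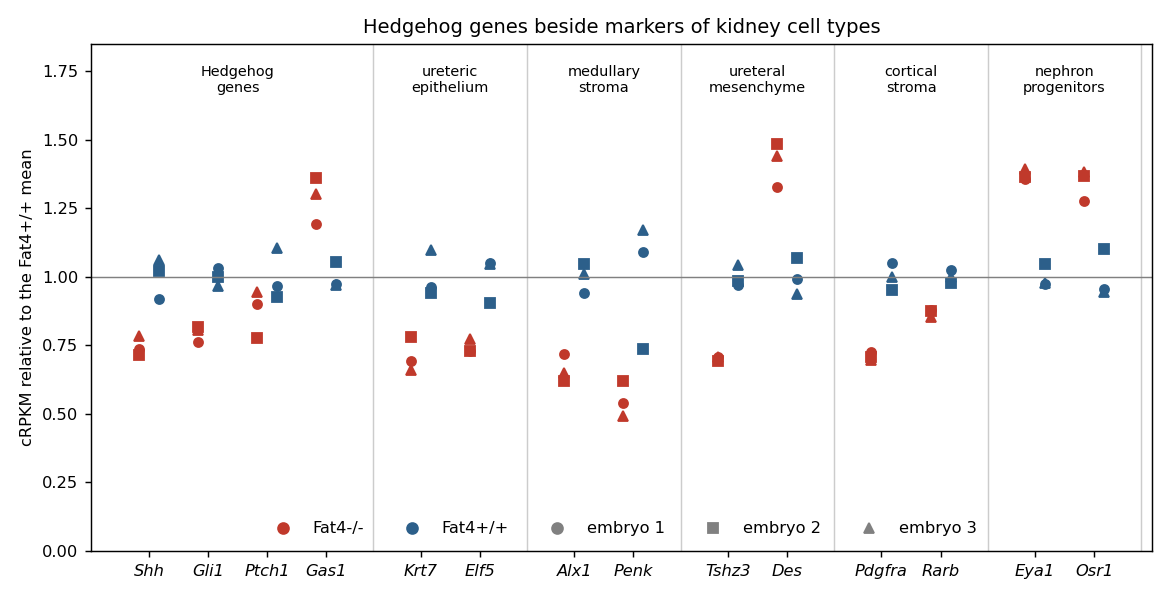
Level of each gene relative to its Fat4+/+ mean (cRPKM divided by that mean, linear axis from 0) for 4 Hedgehog genes and for the 2 markers with the smallest p, in either direction, of 5 cell types, with the 3 Fat4-/- libraries (red) left of the 3 Fat4+/+ libraries (blue). Shh, Gli1 and Ptch1 lie below 1 in all mutant libraries, as do Krt7, Elf5, Alx1, Penk, Tshz3, Pdgfra and Rarb, and Gas1 lies above 1 with Des, Eya1 and Osr1; Shh, Ptch1, Elf5, Penk and Rarb did not pass the test.

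The genes whose levels followed Gli1 most closely over the 6 libraries were Nfia, Ntm and Txnip, with Pearson's r of 0.993, 0.991 and 0.989 on the log2(cRPKM + 1) scale. Nfia, a transcription factor gene, was at 5.63, 5.79 and 5.67 cRPKM in mutant and 6.72, 6.53 and 6.41 cRPKM in wildtype embryos. For Ptch1 they were Mamld1, Ppp1r12b and Plekhm3 (r of 0.997, 0.995 and 0.995). Mamld1 was at 1.31, 1.10 and 1.38 cRPKM in mutant and 1.41, 1.33 and 1.68 cRPKM in wildtype embryos, with the same lowest and highest embryos as Ptch1. These are descriptions over 6 libraries that fall into 2 genotypes, picked as the highest of 12315 genes.

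The 9 genes lie on 7 chromosomes, and none on chromosome 3, which carries Fat4 (GENCODE M21, GRCm38). Ptch1 (63508328 to 63573598), Gas1 (60174405 to 60177365) and Gli3 (15463235 to 15730026) are on chromosome 13, and Gli1 (127329882 to 127341974) is on chromosome 10. Shh is on chromosome 5 (28456815 to 28467256), Smo on 6 (29735503 to 29761365), Cdon on 9 (35421128 to 35507652), Boc on 16 (44485049 to 44558897) and Gli2 on 1 (118834132 to 119053619). Annotated exons on the opposite strand overlapped 589 exonic bases of Gas1 (the long non-coding RNA gene Gm48488), 265 and 62 of Gli1 (Gm47200 and Arhgap9), 188 of Gli3 (Gm6556) and 446 and 361 of Shh (9530036O11Rik and Gm26894). No source used here says whether counting used strand, so reads from these partners cannot be told apart from those of the 4 genes.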

How the data were processed

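Total RNA of embryonic kidneys was sequenced, 1 library per embryo. The authors deposited 1 table with values in RPKM in a corrected form, cRPKM, from trimmed reads, per the file headers; no source used here describes that correction, the tool versions or the read length. Bowtie and mm9 are named in the submitters' processing notes. Columns were matched to embryos by the header text in the labels.

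A value of 1 was added to each cRPKM, log2 was taken, and genotype was fitted as the only term by limma 3.58.1 (R 4.3.3; moderated 2-sided test with a variance trend) for the 12315 genes that averaged 1 cRPKM or more, with Benjamini-Hochberg adjustment over all of them and calls at 0.05. Fold changes are on that scale, which understates low genes. The fit was tested on simulated data with changes in either direction. All of these were larger than those of the 9 genes, so it says nothing of changes as small as theirs. Shares and ratios were computed per library and compared by exact permutation tests. The 9 genes and all lists were chosen with earlier results of these data known. Named besides them are, per pathway list, called genes and up to 3 with the smallest unadjusted p, up to 2 per marker list, and the 3 genes most like Ptch1 and Gli1. Osr2, Hhip, Ihh, Dhh, Foxf1a, Foxf2, Nkx2-2, Upk3a, Ret, Calb1, Wnt11, Cdkn1c, Fibin, Wnt4, Meox2, Dkk1 and Tubb3, and the genes in the closing section beyond that rule, were named after their values were seen. Foxl1 and Tfap2b have no values used here, and some genes counted in the lists are not reported here by name. Alternatives covered pseudocount, filter, scaling, variance prior, library weights, embryo number, a Y-linked covariate and each library left out.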

Additional observations from a re-analysis of the deposited data

How the results depend on the processing

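The count of called Hedgehog genes, 2 of 9, was also 2 with pseudocounts of 0.1 and 0.5, a filter at a mean of 5, quantile normalisation, median centring, no variance trend, library weights and the replicate block (embryo number as a factor). It was 0 without a filter on low values and with the Y-linked covariate, and 0 to 1 with 1 library left out. Called genes of the pathway lists besides these 9 numbered 1; they were 0 without a filter or with the Y-linked covariate, 2 without the variance trend, 3 with library weights, 4 with the replicate block and 0 to 1 with 1 library left out. Over all genes 176 were called, 109 with a filter at a mean of 5, 32 without a filter, 2 with the covariate, 273 with the replicate block and 24 to 132 with 1 library left out. The cause of these changes was not tested; fewer libraries or more genes tested enter by construction. The log2 fold change of Gli1 ran from -0.37 to -0.28 and that of Gas1 from 0.25 to 0.41 over 16 alternatives each. Those of Shh (15) and Ptch1 (16) kept their sign and did not pass. With 1 library left out the sign turned in some fits for Smo (range -0.0689 to 0.0118), Gli2 (-0.1059 to 0.0005), Gli3 (-0.005 to 0.0703), Boc (-0.0208 to 0.0759) and Cdon (-0.0448 to 0.0862). The difference in share, mutant minus wildtype, ran from -6.8 to -4.9 percentage points for Gli1 and from 3.38 to 5.15 for Gas1 in those fits. Deviations of embryos of the same number correlated at 0.0993, 0.205 and 0.279, and those of different numbers at -0.373 to 0.228. The main fit did not pair embryos by number, and whether the number pairs them was not settled. In the limma fit with the replicate block Ptch1 had an unadjusted p of 0.00489 (adjusted p = 0.101). Read totals are unknown, so no counting error could be given for low genes such as Shh.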

Other observations

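Of 8 tested endothelial markers 7 had a fold change below 0, beside 56.8% of all tested genes, and 1 was called. The median of the 8 was -0.04, against -0.01 for all tested genes, and the groups overlapped for 5. Pecam1 (-0.03), Cdh5 (-0.01) and Kdr (-0.03) were among these 5. Cldn5, a tight junction gene, fell to 19.7 ± 0.652 cRPKM in mutant kidneys, against 26.3 ± 2.12 cRPKM in wildtype kidneys (SD, n = 3 each, log2 fold change -0.40, adjusted p = 0.0229). The angiopoietin receptor gene Tek was at -0.34 (adjusted p = 0.0599). Of 6 tested macrophage markers none passed, with 3 fold changes below 0, 3 above 0 and a median of 0.02. Mrc1, a mannose receptor gene, was at 1.66, 1.35 and 1.33 cRPKM in mutant and 2.76, 2.01 and 2.45 cRPKM in wildtype embryos (adjusted p = 0.0556). Emr1 went the other way, also without overlap, at 1.75, 1.54 and 1.53 cRPKM in mutant and 1.45, 1.27 and 1.29 cRPKM in wildtype embryos (adjusted p = 0.361). Col2a1, a cartilage collagen gene, rose to 28.0 ± 0.875 cRPKM in mutant kidneys, against 19.4 ± 1.04 cRPKM in wildtype kidneys (SD, n = 3 each; adjusted p = 0.00438), with the other 5 genes of its list under 1 cRPKM in every library.

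Of the tissues next to the kidney, some of them strong in Hedgehog signalling, gut and gonad were near absent by most of their markers. All 7 gut genes were under 1 cRPKM in every library, as were 9 of 10 gonad genes and 4 of 6 adrenal genes. The adrenal genes Star (1.81 to 2.08 cRPKM) and Mc2r (2.49 to 3.02 cRPKM) lay above Shh in every library. The muscle gene Actc1 reached 7.26 cRPKM in wildtype embryo 1. Skeletal muscle genes summed to 5.58 to 9.64 cRPKM in mutant libraries and to 16.62, 8.84 and 7.22 cRPKM in wildtype embryos 1, 2 and 3. The nerve and Schwann list summed to 34.66 to 39.48 cRPKM in mutant and 30.83 to 37.55 cRPKM in wildtype libraries, most of it from Ngfr. Wildtype embryo 3 also had the highest Th (1.41 cRPKM) and Disp2 (0.420 cRPKM) of the 6 libraries. Erythroid genes summed to 899.1 to 1436 cRPKM in mutant and 680.2 to 1387 cRPKM in wildtype libraries, and none of 4 tested passed.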
